A study of Mus musculus with 8 samples.

Results

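The medium size tumor of the KPC mouse held 137 of 2812 cells in which transcripts of epithelial genes and of myeloid genes were found under the same cell barcode (4.87% of cells, 95% exact binomial interval 4.11% to 5.73%). These double-positive cells were selected on their counts. A cell was taken when it had at least 1 unique molecular identifier (UMI, a tag that marks 1 captured RNA molecule) for 4 or more of 11 epithelial genes and for 3 or more of 8 myeloid genes. The epithelial genes were the keratins Krt7, Krt8 and Krt18, the tight junction claudins Cldn3, Cldn4 and Cldn7, E-cadherin (Cdh1), the transcription factor Elf3, the tetraspanin Tspan8, the protease inhibitor Spint2 and the mucin Muc1. The myeloid genes were Prtn3, Osm, Ccl9, Alox5ap, Tyrobp, Tlr2, Rac2 and Laptm5. The same thresholds sorted the other cells into 2274 epithelial-only cells, 235 myeloid-only cells and 166 cells that met neither side. The series holds 4345 cells in all. Levels of these 19 genes in the sets are a description of that choice, as are levels of genes that go with them, and no test was made of them.

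Both samples of the series are tumors of KPC mice, which carry LSL-Trp53R172H/+ among the alleles switched on by Pdx-1-Cre, a recombinase driven by a promoter of the pancreatic lineage. The mice were untreated, their age is not given in the sources used here, and the tumors were labelled medium size and large size. The tissue was freshly dissociated and captured with the 10x Genomics Chromium 3′ v2 chemistry. Each tumor had 4 technical replicates, deposited as 1 pooled table, so each set of cells comes from 1 tumor and no difference below has a replicate check. Intervals are 95% exact Poisson intervals of summed UMIs, or exact binomial intervals of shares, and cover counting error only.

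Carcinoma cells of this model descend from the pancreatic epithelium and carry keratins, claudins and E-cadherin. Macrophages and other myeloid cells of the stroma carry receptors that signal through ITAM adaptors, toll-like receptors, chemokines and the enzymes of leukotriene synthesis. Whether the transcripts of both lineages under 1 barcode belonged to 1 cell was not tested.

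The 8 myeloid genes of the rule have known roles in innate immune cells. Tyrobp is an ITAM adaptor, Laptm5 a lysosomal membrane protein of blood cells and Rac2 a small GTPase of the leukocyte cytoskeleton and oxidase. Tlr2 senses bacterial lipoproteins, Alox5ap presents arachidonic acid to 5-lipoxygenase, Ccl9 and Osm are secreted signals and Prtn3 encodes proteinase 3, a neutrophil granule protease. F10, coagulation factor X, was among the markers but not in the rule. On mm10 the genes lie apart from each other: Laptm5 on chromosome 4 (130913125 to 130936141), Rac2 on 15 (78559167 to 78572783), Tlr2 on 3 (83836272 to 83841767), Tyrobp on 7 (30413760 to 30417585), Alox5ap on 5 (149264767 to 149288153), Prtn3 on 10 (79874476 to 79883174) and F10 on 8 (13037308 to 13056676). Ccl9 (83572919 to 83578636) and Osm (4236420 to 4241026) are both on chromosome 11, far from each other. These are whole gene spans of the GENCODE M21 annotation.

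Promoters of the myeloid genes are shown because these genes were read together in the same cells. RefSeq promoters (GRCm38.p6, 250 bases before to 50 after the start) were matched for 5 of the 9 genes, and were searched on both strands for GAGGAA, the core read by the myeloid factor PU.1. It was found in those of Laptm5 and Prtn3, where it stands in capitals (as TTCCTC when on the opposite strand), and not in those of Tlr2, F10 and Ccl9. These letters occurred in 28.3% of all 32851 promoters in the table. The Laptm5 promoter lies at chr4:130913066-130913365 and the Prtn3 promoter at chr10:79879417-79879716, both on the plus strand, and the RefSeq starts of both genes lie inside their GENCODE spans.
Laptm5: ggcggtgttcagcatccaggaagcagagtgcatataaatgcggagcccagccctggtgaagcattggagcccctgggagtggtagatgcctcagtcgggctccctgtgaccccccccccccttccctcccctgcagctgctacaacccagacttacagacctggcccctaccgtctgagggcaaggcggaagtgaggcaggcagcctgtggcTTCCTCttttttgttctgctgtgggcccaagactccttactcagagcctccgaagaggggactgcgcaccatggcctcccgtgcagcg
Prtn3: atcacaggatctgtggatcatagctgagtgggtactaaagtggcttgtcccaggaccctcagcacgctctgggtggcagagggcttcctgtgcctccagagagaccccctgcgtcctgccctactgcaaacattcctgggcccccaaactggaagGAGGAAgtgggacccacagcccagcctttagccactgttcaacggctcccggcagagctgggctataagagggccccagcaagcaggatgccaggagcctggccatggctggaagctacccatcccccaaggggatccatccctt
A match is a description of the letters in this window and not of a bound site.

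The median depth of double-positive cells was 6449 UMIs (2733 to 28003), against 6006 in epithelial-only cells, 3508 in myeloid-only cells and 3804 in cells that met neither side. They showed a median of 7 of the 11 epithelial genes and 4 of the 8 myeloid genes. All 8 myeloid genes were read in 4 cells and all 11 epithelial genes in 11 cells.

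**Figure D1:**
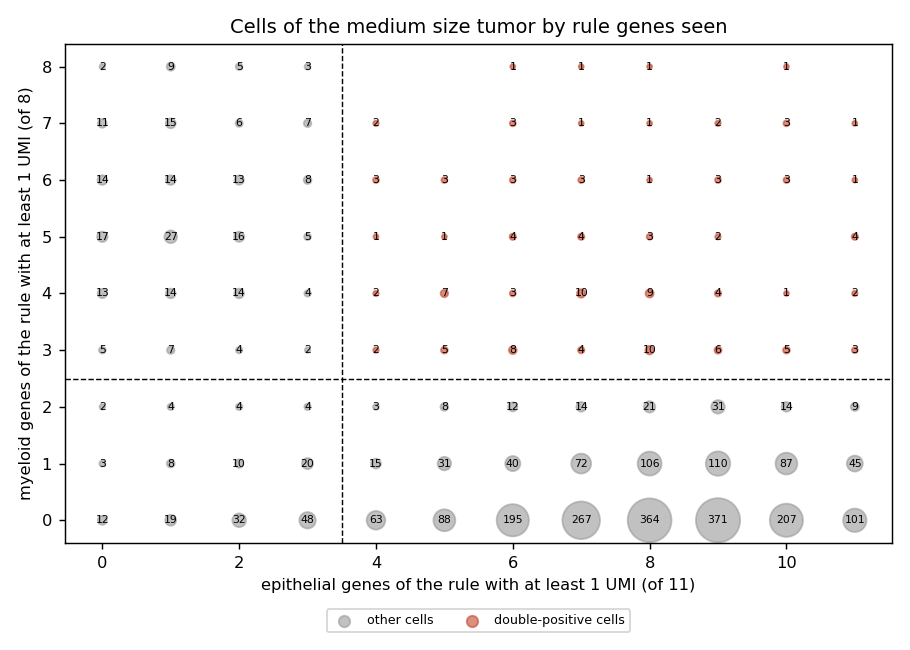
Cells of the medium size tumor by the number of epithelial genes of the rule (horizontal, of 11) and myeloid genes of the rule (vertical, of 8) with at least 1 UMI. Each bubble carries its number of cells, the dashed lines mark the thresholds, and the 137 double-positive cells in the upper right spread over all numbers of myeloid genes from 3 to 8.

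The values at the edge of the rule describe the choice. The 43 cells with exactly 3 myeloid genes on the double-positive side had a median of 3 of 12 macrophage genes (among them C1qa, C1qb, C1qc, Csf1r, Adgre1, Mrc1, Ms4a7, Cd68, Lyz2, Aif1 and Ctss). The 112 cells just outside, with exactly 2, had a median of 1. The 10 cells with exactly 4 epithelial genes had a median of 8 macrophage genes, as did the 29 cells just outside with exactly 3.

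Epithelial genes outside the rule were read in double-positive cells to different degrees. Epcam, the adhesion molecule of epithelia, was at 853 CPM (UMIs per 1000000 UMIs of the set, 800 to 909) in double-positive cells, 1107 (1091 to 1122) in epithelial-only cells and 52.8 (38.8 to 70.2) in myeloid-only cells. It was read in 107 double-positive cells with a median of 3 and a maximum of 52 UMIs. Krt19, a duct keratin, was at 1027 CPM against 1748 and 64.0, and was read in 119 double-positive cells. Desmosomal Dsp was at 99.5 against 107 and 4.49, and the stem cell marker Prom1 at 57.8 against 71.4 and 1.12, the first read in 62 double-positive cells and the second in 37.

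Of the 16 epithelial genes outside the rule, 0 were at least 2-fold higher in double-positive than in epithelial-only cells and 2 were at least 2-fold lower. Over all genes the shares were 1.92% of 10837 higher and 0.166% lower. This fold was taken on CPM with 10 added, for genes with 50 or more UMIs over both sets. The 2 lower genes were Lgals4, a gut galectin (1091 CPM against 2250), and Tff1, a gastric trefoil peptide (961 against 1963, with 480 of its UMIs in 1 double-positive cell). Against myeloid-only cells, 9 of the 9 genes with enough counts were at least 2-fold higher, where 12.6% of 4641 genes were.

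The myeloid genes of the rule sat between the levels of both other sets. Tyrobp was at 576 CPM (532 to 622) in double-positive cells, 21.8 (19.7 to 24.1) in epithelial-only and 2778 (2669 to 2889) in myeloid-only cells. It was read in 131 of the 137 cells with a median of 3 UMIs and a maximum of 25. Laptm5 was at 188 against 4.56 and 527, and Rac2 at 103 against 3.36 and 301. Relative to the myeloid-only cells, Laptm5 and Rac2 stood at 35.8% and 34.2%, above Tyrobp at 20.7%.

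Tlr2 was at 61.3 CPM against 2.56 in epithelial-only and 188 in myeloid-only cells, and Alox5ap at 188 against 6.84 and 683. Osm, a cytokine of the interleukin-6 family, was at 98.65 against 2.39 and 340. Ccl9, a chemokine, was at 217 against 8.15 and 1380. The 8 genes together were at 1551 CPM against 6638 in myeloid-only cells (23.4%), and singly ran from 15.7% for Ccl9 to 35.8% for Laptm5.

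Prtn3 was at 119 CPM (99.8 to 141) in double-positive cells, 1.71 (1.15 to 2.44) in epithelial-only and 441 (399 to 487) in myeloid-only cells. It was read in 46 double-positive cells, with up to 10 UMIs in a cell. The other primary granule genes were near 0: Elane and Mpo had 1 UMI each in double-positive cells and 0 in myeloid-only cells, and Ctsg had 0 in both. A count of 0 over the double-positive cells allows up to 2.67 CPM.

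F10 was not in the rule but was among the markers given for these cells, so its level is a description too. It was at 100.4 CPM (82.8 to 121) in double-positive cells, 2.85 (2.11 to 3.76) in epithelial-only and 393 (353 to 436) in myeloid-only cells. It was read in 57 double-positive cells (41.6%), with a maximum of 6 UMIs, in 2.07% of epithelial-only cells and in 65.1% of myeloid-only cells. With each cell thinned to 2500 UMIs, these shares were 20.4%, 0.748% and 52.8%. Where cells were thinned before the rule was applied, the level of F10 was 172.5 CPM in the 68 cells that met it.

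**Figure D2:**
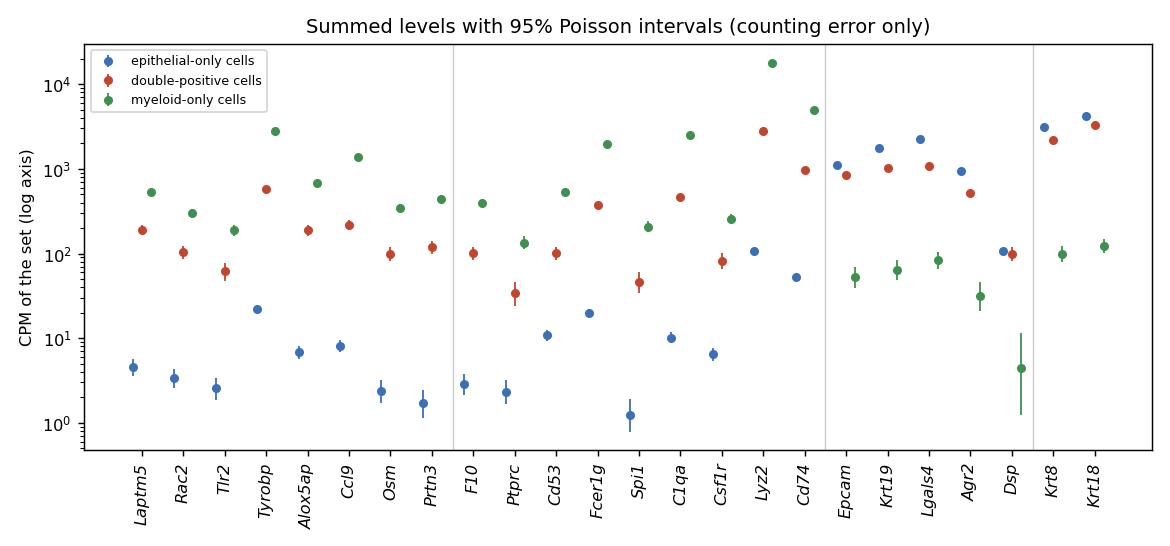
Summed levels (vertical, CPM, log axis) of selected genes in epithelial-only, double-positive and myeloid-only cells, with 95% Poisson intervals of counting error. The 8 myeloid genes of the rule stand left, then F10 and leukocyte genes, then epithelial genes outside the rule, then Krt8 and Krt18 of the rule, and the double-positive level of each myeloid gene, such as Tyrobp at 576, lies between the other sets.

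Leukocyte genes outside the rule had the same order of levels. The 12 pan-leukocyte genes summed to 1107 CPM (1047 to 1171) in double-positive cells, 70.0 (66.1 to 74.0) in epithelial-only and 5391 (5240 to 5546) in myeloid-only cells, or 20.5% of the last. In the 68 cells that met the rule after thinning they were at 1742. Of those with enough counts, 10 of 10 were at least 2-fold higher than in epithelial-only cells, where 1.92% of all genes were, and 11 of 11 at least 2-fold lower than in myeloid-only cells, where 8.83% were. Ptprc, which encodes CD45, was at 33.8 against 2.34 and 135, and Spi1, which encodes PU.1, at 46.2 against 1.25 and 208. Fcer1g, an ITAM adaptor, was at 373 against 19.9 and 1987.

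Genes of both lineages outside the rule were also read under the same barcode. Epcam or Krt19 together with 2 or more pan-leukocyte genes were read in 103 of 137 double-positive cells (75.2%, 67.1% to 82.2%), in 8.18% of epithelial-only and in 35.3% of myeloid-only cells. With all cells thinned to 2500 UMIs and a stricter demand of 4 or more epithelial genes outside the rule and 3 or more pan-leukocyte genes, the shares were 20.4% (14.0% to 28.2%), 0.264% and 0%. The 0 of 235 myeloid-only cells allow a share of up to 1.28% by a limit of 3 counts, or 1.56% by the exact interval.

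Macrophage genes were read in most double-positive cells, with at least 1 of the 12 in 133 of them (97.1%), but also in 63.3% of epithelial-only and 100% of myeloid-only cells. The 12 genes summed to 4970 CPM (4841 to 5102) in double-positive cells, 185 (179 to 192) in epithelial-only and 29462 (29107 to 29821) in myeloid-only cells. In the 68 cells that met the rule after thinning they were at 7912. Lyz2, lysozyme, was at 2789 against 108 and 17785 and was read in 127 double-positive cells with a median of 13 and a maximum of 116 UMIs. C1qa, a complement subunit, was at 462 against 10.1 and 2478, and Csf1r, the receptor of macrophage growth factor, at 81.8 against 6.44 and 254.

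Genes of ITAM signalling, antigen presentation and the oxidase were counted in the same way, beside 1.92% of all genes at least 2-fold higher than in epithelial-only cells. Of 9 ITAM receptor genes with enough counts, 8 were at least 2-fold higher, among them Fcgr3, an Fc receptor (219.5 CPM against 9.40). Trem2, a lipid receptor of macrophages, was at 34.7 CPM against 5.18 in epithelial-only and 281 in myeloid-only cells. Of 6 MHC class II genes with enough counts, 6 were at least 2-fold higher, with the invariant chain Cd74 at 970.5 against 52.9 and 5017. Of 7 MHC class I genes 1 was higher, and of 9 genes of the oxidase and of Rac partners 4 were. Cybb, the catalytic oxidase subunit, was at 95.1 against 2.62 and 380, and Ncf4 at 59.6 against 1.71 and 200. Rac1, the widespread relative of Rac2, did not lie between the other sets, at 517 CPM in double-positive, 459 in epithelial-only and 480 in myeloid-only cells.

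The 12 toll-like receptor pathway genes summed to 1124 CPM in double-positive cells, 547 in epithelial-only and 2983 in myeloid-only cells. Of 9 with enough counts, 2 were at least 2-fold higher than in epithelial-only cells, against 1.92% of all genes. These were Cd14, a co-receptor (288 CPM against 136), and Nfkbia, the feedback inhibitor of NF-κB (585 against 253). Tlr4 was at 6.22 against 4.61 and 11.2 in myeloid-only cells. Of 7 leukotriene and eicosanoid genes with enough counts, 3 were at least 2-fold higher. Ltc4s, which makes leukotriene C4, was at 62.2 against 4.96 and 258. The lipoxygenase Alox5 was at 7.11 against 0.627 and 23.6, with too few counts to be among the 7.

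The 18 cytokine and chemokine genes summed to 4808 CPM in double-positive cells, 590 in epithelial-only and 23096 in myeloid-only cells, or 20.8% of the last. Of 17 with enough counts, 13 were at least 2-fold higher than in epithelial-only cells and 1, the epithelial chemokine Cxcl5, was lower (65.8 against 144), where 1.92% and 0.166% of all genes were. Cxcl2 was at 1956 against 133 and 8752, and Il1b at 339 against 31.8 and 1544.

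A list of 9 cytokine and chemokine receptor genes held Osmr, Lifr, Il6st, Ccr1 and Ccr3. It also held Il1r1, Il1r2, Csf2ra and Csf2rb, whose ligands are not in the rule. Of 8 with enough counts, 3 were at least 2-fold higher than in epithelial-only cells, against 1.92% of all genes. Against myeloid-only cells 4 of 4 were at least 2-fold lower, where 8.83% of all genes were. Osmr, the receptor of Osm, was at 16.0 CPM in double-positive cells, 19.3 in epithelial-only and 1.12 in myeloid-only cells, and its partner Il6st at 24.0, 22.7 and 8.99. Ccr1, a receptor of CC chemokines, was at 33.8, 1.88 and 138.

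Of 11 coagulation genes with enough counts, a list that does not hold F10, 1 was at least 2-fold higher than in epithelial-only cells, against 1.92% of all genes. Against myeloid-only cells 3 of 8 were higher and 2 lower, where 12.6% and 8.83% of all genes were. F13a1, the clot transglutaminase, was at 43.6 CPM in double-positive, 0.798 in epithelial-only and 179 in myeloid-only cells. F7, the partner of tissue factor, was at 15.1, 0.684 and 82.0, with too few counts to be among the 11. Tissue factor itself, F3, was at 112, 99.7 and 39.3, and F5 at 80.0, 85.1 and 40.4. The inhibitors of granule proteases included Slpi at 475, 194 and 2231 and Serpinb1a at 79.1, 102 and 23.6.

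To place each cell between the sets, its counts of 11061 genes outside the rule were fitted as a sum of the mean profiles of the epithelial-only, myeloid-only and neither cells, with a cell of one of these sets first taken out of its own profile. The myeloid profile took a median of 20.2% of the UMIs of a double-positive cell (25th to 75th percentile 8.23% to 37.4%). It took 0.000453% in epithelial-only and 99.9% in myeloid-only cells. The double-positive cells as a whole were fitted with 80.5% epithelial-only, 19.45% myeloid-only and 0.04115% neither profile.

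**Figure D3:**
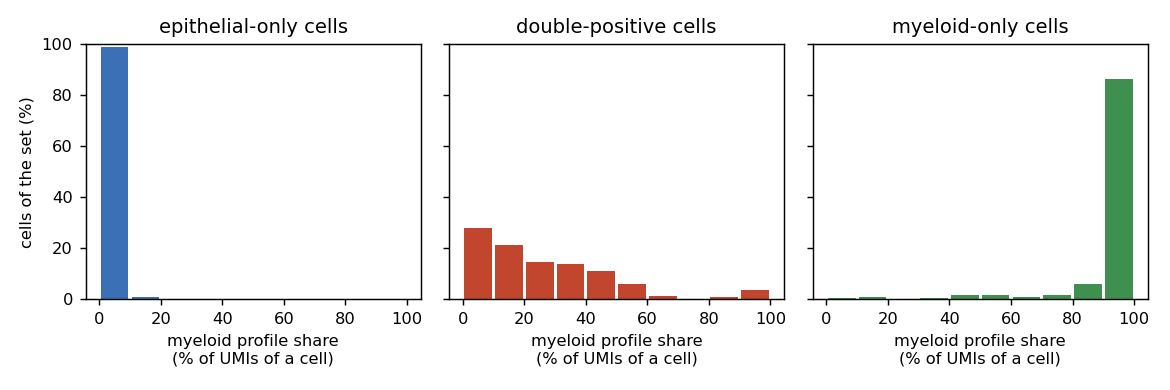
Share of a cell's UMIs fitted by the myeloid-only profile (horizontal, %), with bars giving the percentage of epithelial-only, double-positive and myeloid-only cells in steps of 10 percentage points. Double-positive cells fill the low and middle range, with a median of 20.2%, while the other sets pile up at the ends.

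The 137 cells were spread over the range of shares. In 26 cells the myeloid share was under 5%, in 41 it was 5% to 20%, in 54 it was 20% to 50% and in 16 it was 50% or more. Of the epithelial-only cells, 97.8% were under 5%, and of the myeloid-only cells, 96.6% were at 50% or more. These cut points are a way to describe the range.

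Cells at the low end were deep. The 26 double-positive cells under 5% had a median of 13884 UMIs, 3 myeloid genes of the rule and 2 of 12 macrophage genes, and a median of 52.8 UMIs in the myeloid part. For them the label of a mixed cell rests on few myeloid UMIs. The 41 cells from 5% to 20% had a median of 8288 UMIs. The 54 cells from 20% to 50% had a median of 5140 UMIs, of which the fit gave 2966 to the epithelial and 1657 to the myeloid part, as medians over cells.

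At the high end, the 16 cells at 50% or more had a median of 5084 UMIs, with 3570 in the myeloid and 1185 in the epithelial part, and a median of 5.5 epithelial genes of the rule. In 5 of them the myeloid share was 94.0% to 99.99% and 4 or 5 epithelial genes of the rule were read, so for these the label of a mixed cell rests on few epithelial UMIs. Over all double-positive cells the myeloid part had a median of 1242 UMIs and the epithelial part 4345. The same medians were 3341 for the myeloid part of myeloid-only cells and 5575 for the epithelial part of epithelial-only cells.

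**Figure D4:**
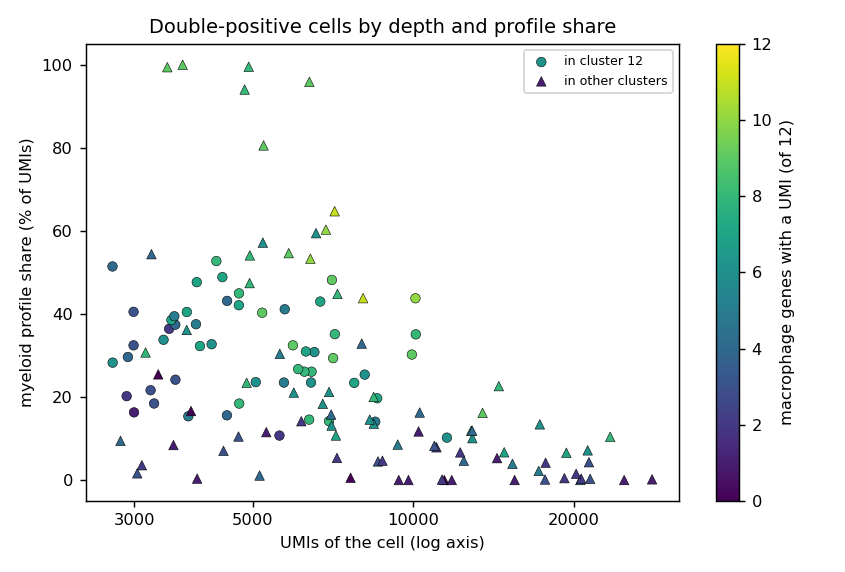
The 137 double-positive cells by total UMIs (horizontal, log axis) and share fitted by the myeloid profile (vertical, %), coloured by the number of the 12 macrophage genes read. Circles are the 54 cells of cluster 12 and triangles the other 83 cells, and the 26 cells under 5% had a median of 13884 UMIs.

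The share of double-positive cells was also read by depth. Among cells that met the epithelial side, sorted by UMIs into 4 groups of 602 or 603 cells, 5.14%, 4.82%, 6.47% and 6.30% were double-positive from the shallowest to the deepest group. With every cell thinned to 2500 UMIs before the rule was applied, the shares were 3.32%, 2.82%, 3.81% and 1.33%, and 68 cells met the rule in all.

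The doublet caller Scrublet, which adds up random cells and asks how near each barcode lies to such sums, marked 0 of 2812 cells. Its calls were not used, and its score is given as a value only. The median score was 0.107 in double-positive cells, 0.0403 in epithelial-only and 0.0317 in myeloid-only cells. Of the double-positive cells, 46 (33.6%, 25.7% to 42.1%) were among the highest 5% of scores in the tumor, and 91 were not. The part of doublets in the double-positive cells was not tested.

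Unsupervised clustering placed 54 of the 137 cells (39.4%, with 40 of them carrying 5 or more macrophage genes) in 1 cluster of 64 cells. The other 10 cells of that cluster were 4 epithelial-only and 6 myeloid-only cells. A further 65 double-positive cells lay in 8 clusters in which at least 75% of cells were epithelial-only, 16 lay in 2 clusters of mostly myeloid-only cells and 2 lay in a mixed cluster led by Dcn. The double-positive cells of the cluster of 64 had a median of 4718 UMIs and a myeloid share of 10.2% to 52.7%. Those outside it had 8053 UMIs and a median share of 10.7%.

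The genes that led the cluster of 64 were Laptm5, Rac2, F10, Prtn3, Tlr2, Ccl9, Osm, Tyrobp, Alox5ap and Ccl6. They include the 8 myeloid genes of the rule, and cluster and rule are therefore no independent views of these cells. Laptm5 in its 54 double-positive cells was at 330 CPM, or 62.7% (49.8% to 78.3%) of the myeloid-only level, Tlr2 at 131, or 69.7%, and Rac2 at 172, or 57.2%. F10, outside the rule, was at 203, or 51.7% (38.5% to 68.2%). C1qa was at 30.6% (26.5% to 35.1%) and Lyz2 at 27.2%, and Ccl9 and Tyrobp of the rule were at 27.4% and 31.85%. The cells were chosen for UMIs of the rule genes, and F10 was a given marker that also led this cluster. The percentages of the rule genes and of F10 can therefore not be set against those of other genes.

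These 54 cells were fitted with 29.98% of the myeloid-only and 70.0% of the epithelial-only profile. Of 814 genes outside the rule with 50 or more UMIs there, 45 (5.53%) were at least 1.5-fold above that sum. F10 was one of them, at 203 CPM against 120 in the sum. As a given marker and a leading gene of this cluster, its place there is a description of the choice. Fn1, fibronectin, was at 2613 against 1571 and was read in 49 of the 54 cells, and Thbs1, thrombospondin, at 595.5 against 306. Ly6d was at 3301 against 1380 and was read in 35 of the 54 cells. Epithelial genes lay on both sides of the sum, with Agr2 at 1115 against 664, Epcam at 1157 against 791, Lgals4 at 1535 against 1600 and Tff1 at 189 against 1388. The genes of this paragraph were picked after their values were seen.

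By macrophage content the double-positive cells fell into 80 cells with 5 or more of the 12 genes (58.4%, 49.67% to 66.75%) and 57 cells with fewer. In myeloid-only cells the first kind made up 206 of 235 (87.7%) and in epithelial-only cells 13 of 2274 (0.572%). Both kinds were of like depth, with medians of 6425 and 7195 UMIs, and their median myeloid shares were 30.55% and 7.89%. Macrophage genes chose this split, so their levels in it are descriptive.

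In the 57 cells the complement gene C1qa was at 20.99 CPM (10.5 to 37.6) and at 847 (775 to 924) in the 80 cells. F10 was at 55.3 (37.1 to 79.5) against 140 (112 to 173), Laptm5 at 105 against 261 and Tyrobp at 235 against 874. Prtn3 was at 30.5 against 196 (163 to 235). Epcam was at 857 against 850, and the intervals overlapped.

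Over all genes, those of the split included, 118 of 3118 genes with enough counts (3.78%) were at least 2-fold higher in the 80 cells and 17 (0.545%) were lower. Genes carried by a few cells moved with the split. The 12 neutrophil genes were at 286 CPM in the 80 cells and 2261 in the 57 cells, which hold the 3 cells with Ngp. Of the lower genes 4 were of this list, among them S100a9 with a ratio of 0.0508. The 5 red blood cell genes were at 1744 against 30.5, and 4 of the higher genes were of this list. Their part in the other differences was not tested. MHC class II genes were at least 2-fold higher for 6 of 6 genes, with H2-Ab1 at 824 CPM against 76.3. Saa3, an acute phase protein, was at 1311 against 103 and Ms4a6c, a macrophage membrane protein, at 122 against 1.91. Among the lower genes Lgals2, a galectin, was at 89.9 against 240, Urah at 43.3 against 122 and the progenitor factor Sox11 at 39.9 against 109. Tff2 was at 191 against 687, with 286 of its 475 UMIs in 1 of the 57 cells, so its direction rests on that cell.

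Most UMIs of neutrophil genes came from 3 cells. Ngp, a neutrophil granule protein, was read in 3 cells and had 0 UMIs in the other 134. The first cell had 38 UMIs of Ngp, 48 of the cathelicidin Camp and 131 of the calprotectin subunit S100a8, among 2993 UMIs. The second had 11, 2 and 77 among 3834 UMIs, and the third 38, 132 and 196 among 5305. They showed 7, 6 and 8 epithelial genes of the rule, 3, 0 and 1 macrophage genes, and 0 UMIs of Prtn3 each. With them the 12 neutrophil genes stood at 1206 CPM, and without them, a choice made after seeing the data, at 256.

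Most haemoglobin UMIs came from single cells. Of 710 UMIs of Hbb-bs in double-positive cells 679 were in 1 cell, and the next highest cell had 2. Of 177 UMIs of Hba-a1, 171 were in 1 cell. The 5 red blood cell genes summed to 946 CPM against 180 in epithelial-only cells. The highest Hbb-bs count in any cell outside the double-positive set was 560.

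Markers of lymphocytes, fibroblasts and endothelium were read at lower levels than in the cells that met neither side. The 9 lymphocyte genes summed to 5.33 CPM in double-positive cells, with 6 of 9 at 0, against 99.8 in cells that met neither side. The 8 fibroblast genes summed to 127 against 224 in epithelial-only cells and 8350 in cells that met neither side, with Lum, Pdgfra, Pdgfrb and Col6a3 at 0. Endothelial genes summed to 28.4 against 680. Of the 10 mast cell and basophil genes 7 were at 0, and Mcpt8 was at 78.2 against 133 in epithelial-only cells. Acinar and endocrine genes summed to 10.7 against 5.18 in epithelial-only cells, with 7 of 9 at 0.

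Few genes were higher in double-positive cells than in both single sets. Of 3350 genes read in at least 25% of the cells, 2 (0.0597%) were at least 1.5-fold above the higher of the epithelial-only and myeloid-only levels, with 10 CPM added. These were Rbm26, an RNA-binding protein, at 82.7 CPM against 46.8 and 47.2, and Rab12, a vesicle GTPase, at 49.8 (37.6 to 64.6) against 28.1 and 24.7. Next were Ptgs2, cyclooxygenase 2, at 131 against 59.4 and 85.4, and Piezo1, a mechanosensitive channel, at 52.4 against 32.9 and 30.3. Cells that met neither side had Ptgs2 at 190. The remaining 21 of the 25 genes named by this ratio were between 1.31 and 1.41.

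Likewise few were lower than in both. Among genes read in at least 25% of the cells of both sets, the smallest ratio to the lower set was 0.712, for the chromatin protein Hmgb2 (168 CPM against 240 and 301). The 9 that followed ran from 0.766 for C1d to 0.817 for Acaa1a. The 10 cell cycle genes summed to 327 CPM against 373 in epithelial-only and 452 in myeloid-only cells.

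The fitted sum of the 3 profiles gave most genes closely. Over 3118 genes outside the rule with 50 or more UMIs in double-positive cells, the ratio of the measured to the fitted level had a median of 1.02, with 90% of genes from 0.816 to 1.295. At least 1.5-fold above the sum were 25 genes (0.802%) and at least 1.5-fold below it 23 (0.738%).

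**Figure D5:**
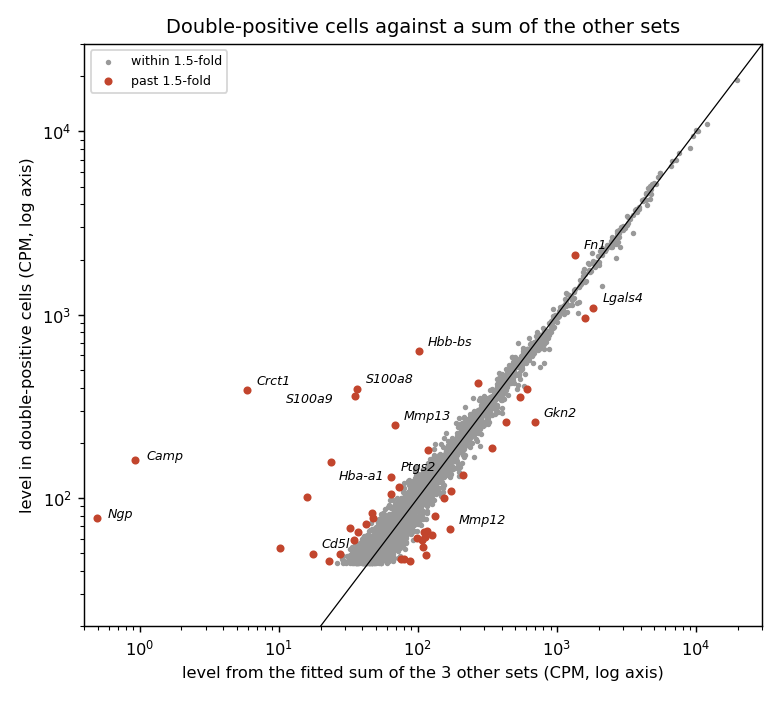
Level of each gene in double-positive cells (vertical, CPM, log axis) against the level of the fitted sum of the 3 other sets (horizontal, log axis), for 3118 genes, with the 48 genes past 1.5-fold in red and the line of equality. Most genes follow the line, and the named genes far above it, such as Camp, Crct1 and Hbb-bs, were carried by 1 to 3 cells.

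The highest ratio above the sum came from a single cell. Crct1, a gene of cornified epithelium, was at 387.5 CPM against 5.92, with 431 of its 436 UMIs in 1 cell. Mmp13, a collagenase, was at 249 against 68.5, with 187 of 280 UMIs in 1 cell. Other genes above the sum were read across many cells. Fn1 was at 2128 (2043 to 2215) against 1348 and was read in 128 cells. Nr4a3, an immediate early receptor, was at 68.4 against 32.7 in 44 cells, Cd33, a sialic acid receptor of myeloid cells, at 45.3 against 22.95 in 41 cells, and Rel, an NF-κB subunit, at 77.3 against 47.7 in 61 cells. Bcl2l11 and Cflar, regulators of cell death, were at 72.0 against 42.7 and at 115.5 against 73.5.

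Among the 23 genes below the sum, Gkn2, a gastrokine, was at 259.5 CPM (231 to 291) against 693, and Lgals4 at 1091 against 1827, while Gkn3, another gastrokine, was at 983 against 937, with 255 of its 1106 UMIs in 1 cell. Mmp12, the macrophage elastase, was at 67.6 (53.2 to 84.5) against 170 and Pf4, a platelet-type chemokine, at 187 against 340.

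In the large size tumor the rule was met once. Of its 1533 cells 1 met the rule (0.0652%, 0.00165% to 0.363%), with 496 epithelial-only and 122 myeloid-only cells. Its median was 1037 UMIs per cell against 5456 in the medium size tumor. With both tumors thinned to 500 UMIs per cell, 0 of 1533 cells met the rule in the large size tumor, which allows a share of up to 0.196% by a limit of 3 counts (0.24% by the exact interval), and 2 of 2812 (0.0711%) in the medium size tumor. A difference between the tumors was therefore not detectable at this depth.

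The 1 cell of the large size tumor had 2775 UMIs, with 20 UMIs over the 12 macrophage genes and 0 of F10 and Prtn3. Prtn3 had 3 UMIs in the 122 myeloid-only cells of that tumor and F10 had 23. The tables share 5 cell barcodes, and none of them is a double-positive cell.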

How the data were processed

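Single-cell RNA-seq of 2 tumors was analysed. Cell Ranger and mm10 are named in the submitters' processing notes, with the version not given in the sources used here. The deposited values are raw UMI counts per gene and cell, which the authors made from 4 technical replicates per tumor and pooled in 1 table. The medium size tumor held 20301669 UMIs and the large size tumor 2239012. The 13 mitochondrial gene rows held 0 UMIs in both tables, and 0 columns belonged to other series.

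Counts were summed per set of cells and divided by the UMIs of the set (CPM). Ratios used 10 CPM added and genes with 50 or more UMIs. Profiles were fitted by expectation maximisation, which was tested on simulated data. Thinning to 2500 UMIs left out 0 cells. Clusters came from Seurat 5.3.0 in R 4.3.3 (log normalization to 10000, 2000 variable genes, 10 components, resolution 0.8, 14 clusters). Scrublet ran in scanpy 1.11.5, with numpy 2.4.6, scipy 1.17.1 and pandas 2.3.3 in Python 3.11.15. No doublet was removed.

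Named were the rule genes, genes of the lists, the 25 genes with the highest ratio to the higher single set, the 10 lowest to the lower set, and 10 on each side of the macrophage split, with a UMI in 25% of cells. Genes past 1.5-fold of the fitted sum were chosen after their values were seen. The members and lists were chosen with earlier results of these data known. Alternatives changed the thresholds, depth, doublet scores, clustering and averaging. Some items are not reported here.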

Additional observations from a re-analysis of the deposited data

How the results depend on the processing

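No paired analysis was possible because the technical replicates of each tumor were pooled in 1 table and no test was made, and for the same reason no replicate could be left out. With 5 or more epithelial and 4 or more myeloid genes, 86 cells met the rule, the pan-leukocyte genes were at 1268 CPM, the macrophage genes at 5913 and F10 at 138.9, and 74.42% of cells had 5 or more macrophage genes. With 3 and 2 genes these were 282 cells, 811.6, 3999, 68.0 and 41.13%. With 2 or more UMIs per marker they were 50 cells, 1287, 6418, 166.8 and 82.0%, and Epcam was at 1165. With cells thinned to 2500 UMIs they were 68 cells, 1742, 7912, 172.5 and 76.47%, with Epcam at 1006. Without the highest 5% of Scrublet scores they were 91 cells, 955.8, 3665, 76.0 and 42.86%, with Epcam at 930. As a mean of single cells the levels were 1598, 7116 and 133.8, with Epcam at 934.6. Without the cells with 5 or more macrophage genes they were 450.2, 910 and 55.32. Leaving Prtn3 out of the rule put the macrophage genes at 5248. A demand of 3 or of 7 macrophage genes gave 78.1% and 36.5% of cells. The large size tumor gave 0% of cells after thinning to 500 UMIs. Leaving out the 3 cells with Ngp, chosen after seeing the data, put the neutrophil genes at 256.1. The cause of these moves was not tested. The other 25 values moved by less than their counting interval or 1.5 times, among them the share of double-positive cells in 1 cluster, from 36.5% to 47.45%. The highest of these was in a broader cluster of 260 cells at resolution 0.4, of which 25% were double-positive, against 84.4% of 64 cells as reported.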
